A study of Homo sapiens with 54 samples.

Results

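The 9 genes described here encode the MYC and MAX network of transcription factors. They are MYC and MYCL, MAX, the MXD family genes MXD1, MXD3, MXD4 and MXI1, MNT and MGA. They were taken by symbol from a table of 50037 gene entries and all 9 were present there. MAX is the shared partner: MYC needs it to bind DNA at E-box sites and to raise the transcription of growth genes, above all those that build ribosomes. MXD proteins, MNT and MGA compete for the same partner and repress such sites, the MXD proteins and MNT through the SIN3 corepressor and MGA through a Polycomb complex. In colon cancer MYC is a known target of WNT signalling, and the network is also much studied in liver cancer.

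Poly(A) RNA was sequenced from HCT116, a human colon cancer line, and HepG2, a human hepatocellular carcinoma line whose labels name its cell type as a liver cancer stem cell. Cells in serum-containing medium received IL-6 (50 ng/mL), which signals through JAK kinases and STAT3, IL-10 (50 ng/mL), another STAT3 cytokine, TNF-α (100 ng/mL), an activator of NF-kB, or Torin1 (1 µM), an inhibitor of the mTOR kinase, for 3 h or 6 h. The control (NC) received the same volume of complete medium and its labels give no hour, so time in culture and agent cannot be told apart in a comparison with NC, and each agent was also set against IL-10 of the same hour. With 3 libraries a group and 9 groups a line, there were 54 libraries. Each line stands for 1 established tumour cell line, and no label ties the 3 libraries of a group to separate cultures. The p-values below therefore reflect library-to-library spread, which may be technical. In these bulk libraries, more RNA per cell and more cells that carry it cannot be told apart.

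TNF-α and Torin1 moved a known target gene in both lines and IL-6 mainly in HepG2. SOCS3, a STAT3 target, had 3.58 and 8.61 FPKM in HepG2 after 3 h and 6 h of IL-6, against 0.0836 in NC, but 3.27 and 3.91 FPKM in HCT116, against 2.98 in NC, where the 6 h change was called (log2 0.31) and that of 3 h was not. With IL-10, SOCS3 had 2.27 and 3.09 FPKM in HCT116 and 0.199 and 0.0672 FPKM in HepG2, with no rise called and a lower level called in HCT116 at 3 h (log2 -0.28). NFKBIA, an NF-kB target, had 168 and 94.8 FPKM in HCT116 and 443 and 337 FPKM in HepG2 after 3 h and 6 h of TNF-α, against 9.54 and 79.0 FPKM in NC of the 2 lines. IRS2, a FOXO target that insulin signalling represses, had 3.58 and 3.59 FPKM in HCT116 and 1.62 and 2.08 FPKM in HepG2 after Torin1, against 1.21 and 0.516 FPKM in NC. Depth on genes was 38536745 to 55737150 reads in HCT116 and 46320865 to 93700982 reads in HepG2. All 8 hepatocyte markers passed 1 FPKM in HepG2, with a sum of 12200 to 14800 FPKM, against 2.24 to 8.69 in HCT116. Only 3 of 7 intestinal markers did so in HCT116, where CDX1, VIL1, CDH17 and KRT20 were at or near 0. Blood cell markers summed to at most 0.245 FPKM in HCT116 and 3.02 FPKM in HepG2, fibroblast markers to at most 1.82 and 1.16 FPKM, and endothelial markers to at most 0.098 and 0.636 FPKM.

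Levels are given in FPKM, fragments per kilobase of transcript and per unit of depth, which allows genes to be ranked within a library. Changes are given on the log2(FPKM + 1) scale, with the standard error (SE) from limma, and understate those of low genes. A gene was tested where at least 3 of the 27 libraries of a line had 1 FPKM or more, and called where its p, adjusted by Benjamini and Hochberg over all genes tested in that line, was under 0.05. In both lines 8 of the 9 members were tested. MYCL, the paralog of MYC first known from lung cancer, was not: it had 0.192 to 0.515 FPKM in HCT116 libraries and 0.00629 to 0.175 FPKM in HepG2 libraries. In HepG2 the 3 Torin1 libraries of 6 h (0.160, 0.175 and 0.159 FPKM) stood above all other groups. MXD1 passed in HCT116 with only 4 libraries at 1 FPKM or more, all given Torin1, so its Torin1 changes in that line are a description, and the counts of members with Torin1 in HCT116, and of differences between the lines, leave MXD1 out.

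The members lie on 9 chromosomes, given here on GRCh38.p14 for all but MYC. MAX (Entrez 4149) is on chromosome 14 from 65006101 to 65102695, MNT (4335) on chromosome 17 from 2384073 to 2401060 and MXI1 (4601) on chromosome 10 from 110207605 to 110287365. MXD1 (4084) is on chromosome 2 from 69915109 to 69942945, MXD3 (83463) on chromosome 5 from 177305499 to 177312752 and MXD4 (10608) on chromosome 4 from 2247432 to 2262109. MGA (23269) is on chromosome 15 from 41621224 to 41769940 and MYCL (4610) on chromosome 1 from 39895428 to 39901917. No source used here states whether the authors counted by strand, and MXD3 shares 22.5% of its exon bases with PRELID1 on the opposite strand and 18% with RAB24 on its own strand, so its reads are uncertain. MNT shares 12.2% of its exon bases with an opposite-strand transcript, and no other member shares more than 4.5% with any one gene.

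MNT, MXI1 and MXD4 encode repressors that rose with Torin1 in HCT116 at both hours, and their promoters are shown because they held one of 2 motifs, each a window of 300 bases that spans a RefSeq start on GRCh38.p14 and lies mostly before it. Capitals mark the motifs, searched on both strands: the E-box CACGTG, which MYC and MAX bind, and TGTTTAC or its complement GTAAACA, the core bound by FOXO factors, which AKT signalling keeps out of the nucleus. Among 35116 promoters of this length, 7.26% held the E-box and 3.42% the FOXO motif. No 2 matches overlapped.
MNT (chr17:2401011-2401310, minus strand, E-box at -193 from the start): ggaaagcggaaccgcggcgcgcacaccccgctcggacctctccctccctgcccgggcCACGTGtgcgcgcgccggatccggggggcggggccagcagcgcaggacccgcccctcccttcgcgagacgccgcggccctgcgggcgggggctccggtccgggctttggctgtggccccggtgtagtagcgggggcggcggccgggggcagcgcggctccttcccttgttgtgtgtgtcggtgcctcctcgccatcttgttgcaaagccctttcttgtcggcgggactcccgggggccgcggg
MXD4 (chr4:2262060-2262359, minus strand, E-box at -238): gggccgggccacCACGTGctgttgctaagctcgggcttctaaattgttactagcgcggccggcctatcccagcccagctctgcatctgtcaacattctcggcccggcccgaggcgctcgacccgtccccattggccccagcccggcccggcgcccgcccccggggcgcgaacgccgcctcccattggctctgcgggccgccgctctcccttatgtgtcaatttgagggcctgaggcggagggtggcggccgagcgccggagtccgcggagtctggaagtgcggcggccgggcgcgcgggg
MXI1, one of 3 starts (chr10:110209981-110210280, plus strand, FOXO motif at -151): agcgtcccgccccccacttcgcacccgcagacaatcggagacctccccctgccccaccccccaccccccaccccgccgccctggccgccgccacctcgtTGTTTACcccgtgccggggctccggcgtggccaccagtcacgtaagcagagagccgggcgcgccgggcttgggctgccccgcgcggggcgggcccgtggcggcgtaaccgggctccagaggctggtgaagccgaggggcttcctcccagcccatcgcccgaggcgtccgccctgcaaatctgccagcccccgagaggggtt
MXI1, another start (chr10:110225746-110226045, plus strand, FOXO motif at -2): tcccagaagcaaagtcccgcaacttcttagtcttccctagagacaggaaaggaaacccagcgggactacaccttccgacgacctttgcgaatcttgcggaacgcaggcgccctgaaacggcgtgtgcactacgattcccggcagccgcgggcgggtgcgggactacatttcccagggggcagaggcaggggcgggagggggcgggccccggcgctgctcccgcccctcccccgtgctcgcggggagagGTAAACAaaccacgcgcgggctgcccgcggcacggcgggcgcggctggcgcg
The remaining MXI1 window and those of MAX, MXD1, MXD3, MYCL and MGA held neither motif, and MYC has no window here. A match is a description of these letters only.

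The first comparison set the NC libraries of the 2 lines side by side, where 85.6% of 12992 genes differed and 7 of 8 members did, so the share is near the background. MYC had 100.3, 107.7 and 100.3 FPKM in HCT116, against 29.76, 32.22 and 30.29 FPKM in HepG2 (log2 1.71 ± 0.05 SE, limma adjusted p = 7.0e-29), and no library of one line came near the other. MXD1, the founding MXD repressor, went the other way, at 0.705, 0.495 and 0.421 FPKM in HCT116 against 4.10, 4.38 and 3.98 FPKM in HepG2 (log2 -1.75 ± 0.05). Among the other repressors, MXD4 (1.90 against 3.84 FPKM, log2 -0.74) and MGA (6.77 against 9.91 FPKM, log2 -0.49) were also lower in HCT116. MXI1 (7.78 against 4.83 FPKM, log2 0.59), MAX (12.6 against 10.2 FPKM, log2 0.29) and MNT (1.61 against 1.22 FPKM, log2 0.23) were higher there, and MXD3 did not pass (1.31 against 1.34 FPKM, log2 -0.03). MYCN, the neuronal paralog of MYC and no member here, was listed at 0 in all HCT116 libraries but 1, which had 0.00626 FPKM, against 4.55, 4.43 and 4.47 FPKM in NC of HepG2. Rescaling to equal total reads shifts the median of all genes in this comparison by 0.18, and every sign given here is the same under it except that of MXD3.

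MYC (Entrez 4609), on chromosome 8 from 127735434 to 127742951 of GRCh38.p14, was described in every group of both lines. In HCT116 it had 121.0, 131.4 and 121.4 FPKM after 3 h of Torin1 and 139.7, 140.3 and 117.4 FPKM after 6 h. With TNF-α it had 120.3, 124.4 and 125.7 FPKM at 3 h and 139.4, 137.9 and 152.3 FPKM at 6 h, against 100.3, 107.7 and 100.3 FPKM in NC. All 12 of these treated libraries stood above the 3 NC libraries. The rise was log2 0.28 and 0.36 for Torin1 and 0.26 and 0.47 for TNF-α (SE 0.05, limma adjusted p = 0.00043 for TNF-α at 3 h and lower for the others). The 12 libraries given IL-6 or IL-10 lay between 97.74 and 109.7 FPKM, across the NC values, and neither agent passed at either hour. Relative to IL-10 at the matching hour, MYC also rose with TNF-α (log2 0.29 and 0.42) and with Torin1 (0.30 and 0.30).

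In HepG2 MYC had its highest levels with Torin1. It had 70.62, 73.01 and 69.65 FPKM after 3 h and 62.87, 65.59 and 63.69 FPKM after 6 h of Torin1, against 29.76, 32.22 and 30.29 FPKM in NC (log2 1.18 and 1.03 ± 0.05 SE, limma adjusted p = 3.6e-14 and 1.8e-13). The ranges of the 3 groups did not overlap. At 3 h it was also higher than in NC with each cytokine: IL-6 gave 50.06, 48.33 and 45.43 FPKM (log2 0.62), TNF-α 42.48, 43.16 and 41.83 FPKM (0.45) and IL-10 37.27, 42.29 and 38.86 FPKM (0.35). These 3 comparisons share their NC libraries, whose labels give no hour. At 6 h the 9 cytokine libraries had 28.86 to 33.40 FPKM, across the NC range, and none of the 3 groups passed. Against IL-10 of 3 h, IL-6 was higher (log2 0.28 ± 0.05, limma adjusted p = 0.00034, but adjusted p = 0.059 when only the 6 libraries compared were fitted), TNF-α did not pass (0.11, adjusted p = 0.16), and Torin1 was higher by 0.83 at 3 h and 1.04 at 6 h. MYC was lower at 6 h than at 3 h with IL-6 (log2 -0.56), IL-10 (-0.36) and TNF-α (-0.46). With Torin1 it was also called lower at 6 h (-0.148). That call was lost without Torin1 replicate 2 of 3 h (-0.129), or replicate 1 (-0.135) or 3 (-0.144) of 6 h.

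**Figure D1:**
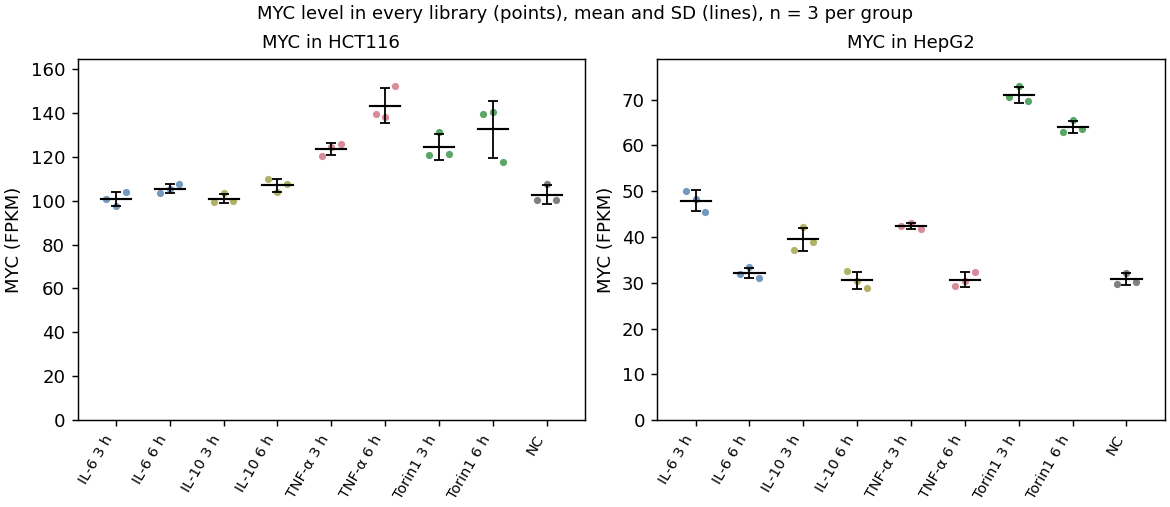
MYC in FPKM (vertical axis, from 0) in HCT116 and HepG2 by group, with 1 point per library and lines for the mean and SD of 3. In HCT116 the Torin1 and TNF-α libraries stand above NC, and in HepG2 the Torin1 libraries stand above all others at both hours while the cytokine groups are above NC at 3 h alone.

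The Torin1 groups show the network with mTOR inhibited. In HCT116, 6 of the 7 members other than MXD1 were called at 3 h, 5 higher and 1 lower, and likewise at 6 h, where 53.7% and 57.2% of all genes were called. In HepG2, 6 of 8 were called at each hour (6 higher at 3 h, 5 higher and 1 lower at 6 h), where 45.5% and 59.9% of all genes were called. In HepG2 at 6 h the members' count over all 8 is near a high background, so the sizes are given below. Of all genes, 25.1% and 25.8% rose in HCT116 and 19.4% and 26.1% in HepG2.

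MNT, the broadly expressed MAX-binding repressor, rose in both lines and at both hours. In HCT116 it had 4.44, 4.80 and 4.40 FPKM after 3 h of Torin1 and 3.34, 3.80 and 3.11 FPKM after 6 h, against 1.55, 1.62 and 1.65 FPKM in NC (log2 1.09 and 0.76 ± 0.05 SE, limma adjusted p = 3.3e-13 and 6.3e-11). In HepG2 it had 3.32, 3.82 and 3.23 FPKM at 3 h and 2.33, 2.48 and 2.58 FPKM at 6 h, against 1.25, 1.19 and 1.21 FPKM in NC (log2 1.00 and 0.64 ± 0.06, adjusted p = 3.6e-12 and 2.1e-09). In both lines the 3 h libraries were highest, the 6 h libraries came next and none overlapped NC. MNT was lower at 6 h than at 3 h in HCT116 (log2 -0.33) and in HepG2 (-0.36). It also rose against IL-10 of the same hour, by 0.77 and 0.76 in HCT116 and 0.73 and 0.59 in HepG2.

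MXI1, an MXD family repressor also called MXD2, rose in both lines and was higher at 6 h than at 3 h. In HCT116 it had 11.51, 11.00 and 11.16 FPKM at 3 h and 12.56, 12.53 and 12.86 FPKM at 6 h of Torin1, against 8.07, 7.63 and 7.65 FPKM in NC (log2 0.48 and 0.64 ± 0.03 SE, limma adjusted p = 1.6e-10 and 2.0e-12). In HepG2 it had 6.49, 6.26 and 6.31 FPKM at 3 h and 8.41, 9.67 and 9.23 FPKM at 6 h, against 4.70, 5.10 and 4.68 FPKM in NC (log2 0.34 and 0.79 ± 0.05, adjusted p = 3.0e-05 and 6.8e-11). Neither line had overlap between Torin1 and NC libraries. The 6 h level was higher than that at 3 h by 0.16 in HCT116 and 0.46 in HepG2, both called. Against IL-10 of the same hour MXI1 rose by 0.22 and 0.56 in HCT116 and 0.39 and 0.90 in HepG2.

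The other 3 MXD genes had less alike changes in the 2 lines. MXD4, a repressor linked to differentiated cells, had 2.53, 2.59 and 2.24 FPKM at 3 h and 3.44, 3.20 and 3.60 FPKM at 6 h of Torin1 in HCT116, against 2.10, 1.86 and 1.74 FPKM in NC (log2 0.25 and 0.61 ± 0.06 SE, both called). All 6 Torin1 libraries were above NC, though the 3 h rise did not pass against IL-10 (0.13, limma adjusted p = 0.062). In HepG2 MXD4 did not pass at 3 h (3.65 ± 0.38 FPKM against 3.84 ± 0.41 in NC, SD, n = 3). Its change at 6 h (4.41, 4.58 and 4.46 FPKM, against 3.76, 3.48 and 4.27 FPKM in NC, log2 0.18) was called but lost the call without NC replicate 1 (0.17), NC replicate 2 (0.13), Torin1 replicate 2 (0.17) or Torin1 replicate 3 (0.19).

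MXD3, an MXD gene linked to dividing cells, had 2.20, 2.19 and 2.47 FPKM at 3 h and 2.27, 2.70 and 2.76 FPKM at 6 h in HCT116, against 1.51, 0.994 and 1.42 FPKM in NC (log2 0.52 and 0.64 ± 0.08 SE, both called). In HepG2 it rose at 3 h (1.86, 1.64 and 2.35 FPKM, against 1.38, 1.24 and 1.41 FPKM in NC, log2 0.33) and at 6 h did not pass (1.72, 1.25 and 1.23 FPKM, log2 0.03). Reads of PRELID1 and RAB24 could enter these values, as given above. MXD1 had 1.23, 1.30 and 1.36 FPKM at 3 h and 0.982, 1.04 and 0.993 FPKM at 6 h of Torin1 in HCT116, against 0.705, 0.495 and 0.421 FPKM in NC, and in the 18 libraries of the cytokines it had 0.373 to 0.582 FPKM. In HepG2 it rose against NC at 3 h (5.64, 5.78 and 5.56 FPKM, against 4.10, 4.38 and 3.98 FPKM in NC, log2 0.37 ± 0.04). Against IL-10 of 3 h this rise did not pass (0.07, limma adjusted p = 0.14). At 6 h it had 3.70, 3.80 and 3.69 FPKM there, log2 -0.12 against NC, a call lost without NC replicate 2 (-0.09) and turned against IL-10 of 6 h, over which it was higher by 0.21.

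MAX is the partner the other members share. In HepG2 it had 12.10, 10.80 and 11.06 FPKM at 3 h and 12.34, 13.00 and 12.80 FPKM at 6 h of Torin1, against 9.54, 10.76 and 10.27 FPKM in NC. The 6 h rise was log2 0.29 ± 0.05 SE (limma adjusted p = 5.3e-05). That at 3 h (0.14) lost its call without NC replicate 1 (0.10), NC replicate 3 (0.15) or Torin1 replicate 1 (0.09). In HCT116 MAX did not pass against NC at either hour (11.9 ± 0.53 and 13.0 ± 0.77 FPKM, against 12.6 ± 0.56 FPKM in NC, SD, n = 3 each).

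MGA, which carries a T-box as well as the MAX-binding domain, fell in HCT116. It had 5.34, 5.16 and 5.40 FPKM at 3 h and 5.57, 5.49 and 5.70 FPKM at 6 h of Torin1, against 6.94, 6.77 and 6.60 FPKM in NC (log2 -0.30 and -0.24 ± 0.04 SE, both called). The IL-10 libraries had 5.27, 5.42 and 5.28 FPKM at 3 h and 6.22, 5.76 and 5.73 FPKM at 6 h, and against them Torin1 did not pass (-0.005 and -0.07). In HepG2 Torin1 did not pass against NC at either hour (10.0 ± 0.08 and 10.3 ± 0.48 FPKM, against 9.91 ± 0.17 FPKM in NC, SD, n = 3 each), and against IL-10 MGA was higher by 0.21 and 0.18.

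Against IL-10 of the same hour, 4 of 7 members other than MXD1 were called higher at 3 h and 6 of 7 at 6 h in HCT116, and none lower, where 44.3% and 57.3% of all genes were called. In HepG2, 6 of 8 were called higher at each hour and none lower, where 45.5% and 59.0% were called. MAX in HCT116 at 6 h (log2 0.16) lost this call without Torin1 replicate 1 (0.12), and MAX in HepG2 at 3 h (0.14) lost it without IL-10 replicate 1 (0.08) or Torin1 replicate 1 (0.09).

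**Figure D2:**
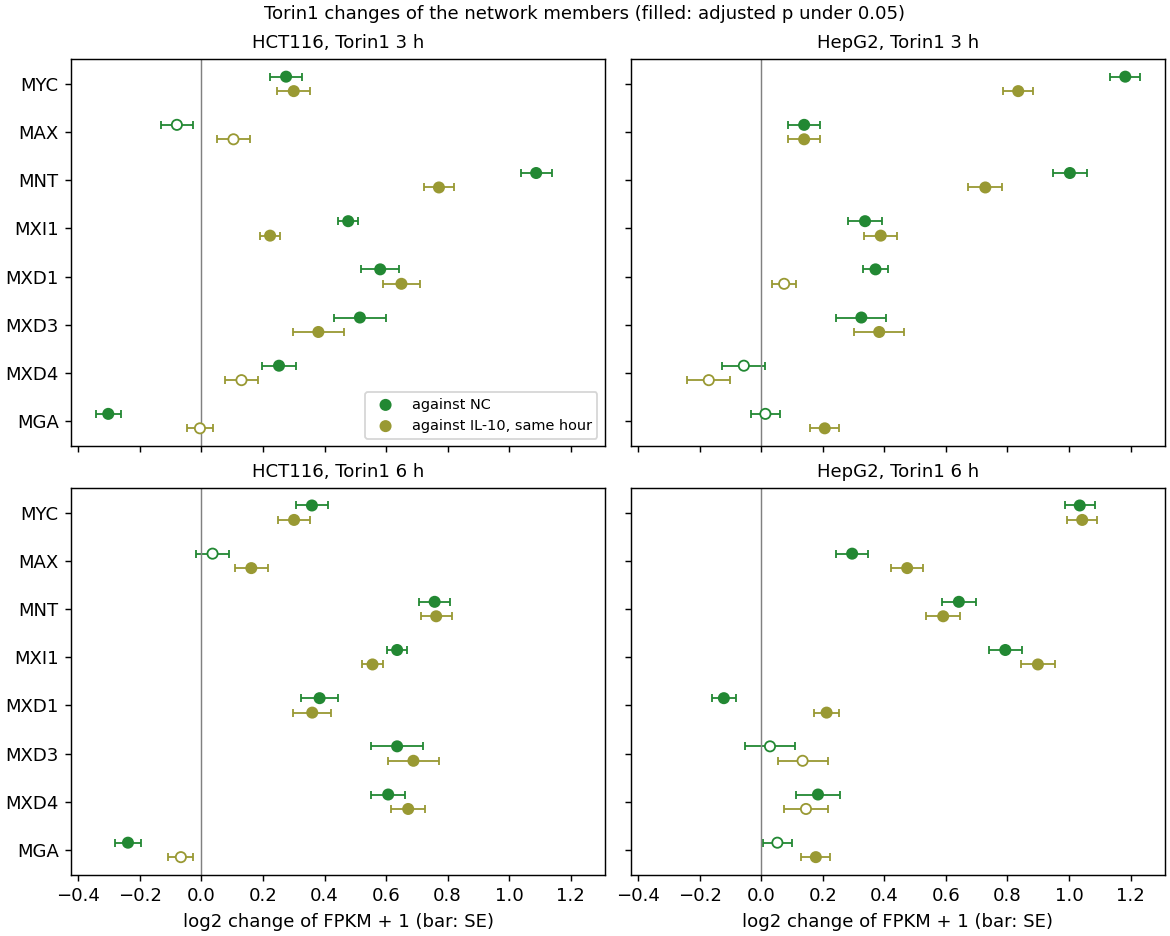
Changes of the 8 tested members with Torin1 (horizontal axis, log2 of FPKM + 1) against NC (green) and against IL-10 of the same hour (olive), with bars for the SE and filled points for called changes. MYC and MNT lie far to the right in HepG2 and MNT in HCT116, MXI1 lies to the right in all 4 panels, and MGA lies left of 0 against NC in HCT116 alone. MXD1 in HCT116 is shown as a description.

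The cytokines moved fewer members. In HCT116, 4 of 8 members were called with IL-6 at 3 h and 2 at 6 h, where 31.6% and 16.6% of all genes were called. With IL-10 4 and 1 were called (38.8% and 20.5% of all genes), and with TNF-α 5 and 3 (41.6% and 33.9%). At 3 h MNT and MXI1 rose and MGA and MAX fell with each of the 3 cytokines. MNT had 2.00, 2.17 and 2.12 FPKM with IL-6, 2.18, 2.34 and 2.22 FPKM with IL-10 and 1.96, 1.91 and 2.08 FPKM with TNF-α, against 1.55, 1.62 and 1.65 FPKM in NC (log2 0.25, 0.32 and 0.19), so that every treated library was above every NC library.

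MXI1 rose by log2 0.25, 0.26 and 0.18 with IL-6, IL-10 and TNF-α at 3 h in HCT116 (9.44 ± 0.21, 9.48 ± 0.10 and 8.98 ± 0.43 FPKM, against 7.78 ± 0.25 FPKM in NC, SD, n = 3 each). MGA fell by 0.29, 0.30 and 0.42 (5.35, 5.32 and 4.83 FPKM, against 6.77 FPKM in NC). MAX fell by 0.23, 0.18 and 0.20 (10.6, 11.0 and 10.9 FPKM, against 12.6 FPKM in NC), that with IL-10 losing its call without IL-10 replicate 1 (-0.12). The 3 comparisons share their NC libraries. Against IL-10 in place of NC, TNF-α at 3 h did not pass for MNT (-0.12), MXI1 (-0.07) or MAX (-0.01). MGA was called lower than NC in all 8 treated groups of HCT116, by log2 0.17 with IL-10 at 6 h to 0.42 with TNF-α at 3 h. Between IL-6 and IL-10 no member was called at either hour, where limma called 0.237% and 0.114% of all genes, and at an unadjusted p under 0.05 0 of the 8 members passed at 3 h and 1, MXI1, at 6 h. Limma-voom on recovered reads called 0 and 0.

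Between TNF-α and IL-10 in HCT116, 2 of 8 members were called at 3 h and 4 at 6 h. Of all genes 36.5% and 42.3% were called, so these counts are not far from the background. At 6 h the level with TNF-α was higher for MYC, as given, for MNT (1.96, 1.99 and 2.23 FPKM, against 1.712, 1.489 and 1.595 FPKM with IL-10, log2 0.23 ± 0.05 SE, limma adjusted p = 0.00075) and for MAX (13.17, 13.08 and 14.08 FPKM, against 11.33, 11.84 and 11.36 FPKM, log2 0.21), and lower for MXI1 (7.51, 7.65 and 6.87 FPKM, against 8.27, 8.11 and 8.48 FPKM, log2 -0.16). In each of these the 2 groups did not overlap, which was also so for 49.5% of all genes. At 3 h MGA was lower than with IL-10 (log2 -0.12), a call lost without IL-10 replicate 1 (-0.12), IL-10 replicate 2 (-0.11) or TNF-α replicate 2 (-0.08).

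In HepG2, 4 of 8 members were called with each cytokine at 3 h, 3 higher and 1 lower (33.9% of all genes called with IL-6, 19.1% with IL-10 and 29.7% with TNF-α). At 6 h, 1 was called with IL-6, 2 with IL-10 and 0 with TNF-α (19.4%, 11.7% and 28.7% of all genes). Beside that 0, 2 of 8, MXD1 and MXI1, passed at an unadjusted p under 0.05, and limma-voom called 1. MYC, MXD1 and MNT were the members that rose at 3 h. MXD1 had 6.28, 6.07 and 6.59 FPKM with IL-6, 5.49, 5.47 and 5.02 FPKM with IL-10 and 5.72, 5.99 and 6.00 FPKM with TNF-α, against 4.10, 4.38 and 3.98 FPKM in NC (log2 0.51, 0.30 and 0.42 ± 0.04 SE).

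All 9 of these MXD1 libraries lay above NC. At 6 h the level of MXD1 was 4.14, 3.98 and 4.06 FPKM with IL-6, 3.12, 3.30 and 2.85 FPKM with IL-10 and 3.97, 3.79 and 3.67 FPKM with TNF-α, and only the IL-10 group passed against NC (log2 -0.33 ± 0.04, limma adjusted p = 0.00018). The 6 h level minus that of 3 h was log2 -0.53, -0.63, -0.52 and -0.49 with IL-6, IL-10, TNF-α and Torin1, all called and with no overlap between hours.

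Against NC, MNT rose in HepG2 by log2 0.38, 0.28 and 0.21 with IL-6, IL-10 and TNF-α at 3 h (1.89 ± 0.09, 1.69 ± 0.14 and 1.56 ± 0.07 FPKM, against 1.22 ± 0.03 FPKM in NC, SD, n = 3 each). At 6 h it had 1.26, 1.30 and 1.24 FPKM and did not pass. The 3 h comparisons share their NC libraries. Against IL-10 of 3 h, MNT did not pass with IL-6 (0.10) or TNF-α (-0.07). MGA fell against NC with IL-10 (log2 -0.19) and TNF-α (-0.22) at 3 h, and with TNF-α it did not pass against IL-10 (-0.03). With IL-6 its change (-0.14) lost the call without NC replicate 1 (-0.13), NC replicate 2 (-0.13), IL-6 replicate 1 (-0.10) or IL-6 replicate 2 (-0.11). The 6 h calls were MXI1 with IL-6 (5.72, 5.57 and 5.56 FPKM, against 4.70, 5.10 and 4.68 FPKM in NC, log2 0.18) and, beside MXD1, MAX with IL-10 (9.71, 8.38 and 8.57 FPKM, against 9.54, 10.76 and 10.27 FPKM, log2 -0.18). The MXI1 call was lost without NC replicate 1 (0.17), NC replicate 3 (0.17) or IL-6 replicate 1 (0.17), and the MAX call without NC replicate 2 (-0.14), NC replicate 3 (-0.17), IL-10 replicate 2 (-0.14) or IL-10 replicate 3 (-0.16).

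Set against IL-10 in HepG2, IL-6 was called for 2 members at 3 h and 3 at 6 h (22.8% and 23.6% of all genes), and TNF-α for 1 and 4 (16.1% and 34.8%). MXD1 was higher with IL-6 at both hours (log2 0.21 and 0.31, the first with a limma adjusted p of 0.068 when only the 6 libraries compared were fitted) and with TNF-α at 6 h (0.23). MXI1 was higher at 6 h with IL-6 (0.29) and TNF-α (0.25), where its libraries had 5.56 to 5.72 and 5.28 to 5.52 FPKM, against 4.18 to 4.60 FPKM with IL-10. The other 4 calls each depended on single libraries. For TNF-α at 3 h, MXD1 (0.13) reached an adjusted p of up to 0.193 when IL-10 replicate 3 (0.09), TNF-α replicate 2 (0.12) or TNF-α replicate 3 (0.12) was left out. For IL-6 at 6 h, MAX (0.16) lost its call without IL-10 replicate 2 (0.12) or 3 (0.14) or IL-6 replicate 1 (0.15) or 2 (0.14). For TNF-α at 6 h, MAX (0.16) lost it without IL-10 replicate 2 (0.12) or 3 (0.14) or TNF-α replicate 1 (0.16) or 3 (0.15). MGA (0.13) lost it without any of the 3 IL-10 replicates (0.13, 0.13 and 0.12) or TNF-α replicate 2 (0.13) or 3 (0.10).

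Between the hours, 2 of 7 members other than MXD1 differed in HCT116 with IL-6, 4 with IL-10, 4 with TNF-α and 3 with Torin1, where 18.4%, 20%, 37.3% and 30.4% of all genes did. In HepG2, 4 of 8 differed with each cytokine and 7 with Torin1, where 23.5%, 16%, 25.4% and 36.4% of all genes did. With TNF-α in HCT116, MYC (log2 0.21) and MAX (0.28) were higher at 6 h than at 3 h and MXI1 (-0.26) was lower. MNT was lower at 6 h in HCT116 with IL-6 (-0.25) and IL-10 (-0.32) and in HepG2 with IL-6 (-0.35). It was also called lower at 6 h in HepG2 with IL-10 (-0.22) and TNF-α (-0.19), calls lost without IL-10 replicate 2 of 3 h (-0.18), and without TNF-α replicate 2 of 3 h (-0.17) or replicate 1 of 6 h (-0.13).

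**Figure D3:**
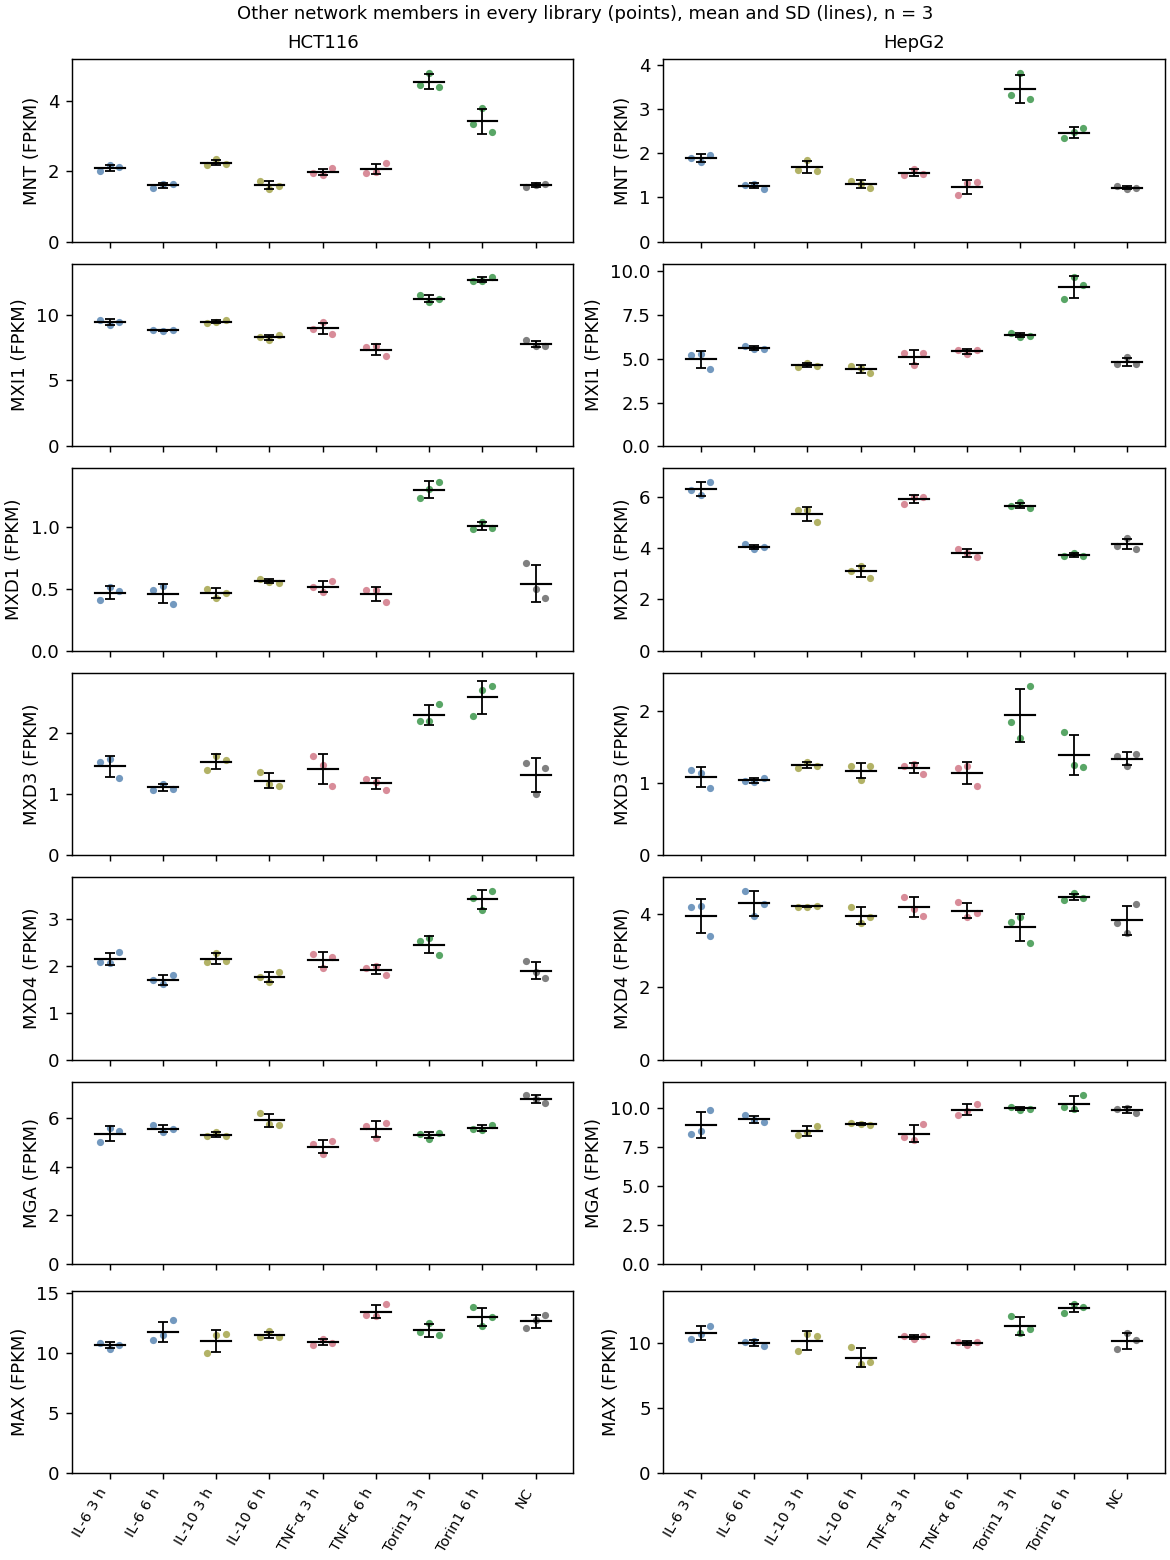
Levels of the 7 other tested members (vertical axes in FPKM, from 0) by group in HCT116 and HepG2, with 1 point per library and lines for the mean and SD of 3. MNT and MXI1 are highest with Torin1 in both lines, MXD1 in HepG2 is high in every 3 h group and lower in every 6 h group, and MGA in HCT116 is highest in NC.

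Whether an effect differed between the lines was tested as an interaction, the effect in HCT116 minus that in HepG2, over the 9683 genes that passed in both. For the 7 members other than MXD1, 23 of 56 interactions were called against NC and 18 of 42 against IL-10, where 15.8% to 50.1% and 12.5% to 51.3% of all genes were called by agent and hour. Those called under both controls with the same sign are given here. The Torin1 effect on MYC was smaller in HCT116 by log2 0.91 at 3 h and 0.68 at 6 h against NC (limma adjusted p = 6.0e-13 and 7.6e-10), and by 0.54 and 0.74 against IL-10, where 39.9% and 50.1% of all genes differed against NC and 36.4% and 51.3% against IL-10. MXD4 rose more in HCT116, by 0.31 and 0.42 against NC and 0.30 and 0.53 against IL-10, and MXD3 did so at 6 h (0.61 and 0.56). MGA moved lower in HCT116 than in HepG2 at both hours (-0.32 and -0.29 against NC, -0.21 and -0.24 against IL-10). At 6 h the effect on MAX was smaller in HCT116 (-0.26 and -0.31), and so was that on MXI1 (-0.16 and -0.34). The MXI1 value against NC lost its call without HCT116 NC replicate 1 (-0.13), HCT116 Torin1 replicate 1 (-0.15) or 2 (-0.15), HepG2 NC replicate 1 (-0.14) or 3 (-0.14), or HepG2 Torin1 replicate 2 (-0.12) or 3 (-0.15).

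For the cytokines, IL-6 at 3 h moved MYC less in HCT116 (log2 -0.65 against NC, -0.28 against IL-10), where 33.3% of all genes differed against NC and 13.5% against IL-10. The difference against IL-10 had a limma adjusted p of 0.066 when only the libraries compared were fitted. TNF-α at 6 h, where 16.8% of all genes differed against NC and 24.9% against IL-10, raised MYC more in HCT116 (0.48 and 0.41), so that TNF-α and Torin1 differed between the lines in opposite directions for MYC. With TNF-α at 6 h MXI1 moved lower in HCT116 (-0.22 and -0.40) and MGA did too (-0.25 and -0.20), while MNT moved higher (0.22 and 0.27). Against NC the MXI1 call was lost without HCT116 TNF-α replicate 3 (-0.17). The MNT call was lost without HCT116 NC replicate 1 (0.20), HCT116 TNF-α replicate 3 (0.18), HepG2 NC replicate 1 (0.21) or 3 (0.22), or HepG2 TNF-α replicate 1 (0.16). Against IL-10 the MGA call was lost without HCT116 IL-10 replicate 1 (-0.17) or HCT116 TNF-α replicate 2 (-0.16).

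Because FPKM is a per-length unit, the partners of MAX can be added within a library. MYC made up 83.5% of the summed FPKM of the 8 partners in NC of HCT116 and 54.8% in NC of HepG2. In HepG2 its share was 69.6% and 66.9% after 3 h and 6 h of Torin1, 63.8% after 3 h of IL-6, 61.7% after TNF-α and 60.6% after IL-10. In HCT116 the Torin1 groups had 82.0% and 81.9% and the TNF-α groups 86.0% and 88.4%. The summed partners over MAX came to 12.8 ± 0.14 and 12.5 ± 1.28 with Torin1 in HCT116, against 9.74 ± 0.53 in NC, and to 9.05 ± 0.63 and 7.53 ± 0.05 in HepG2, against 5.51 ± 0.22 in NC (SD, n = 3 each). These are RNA levels, a description with no test, and MYCN is not in the sum.

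**Figure D4:**
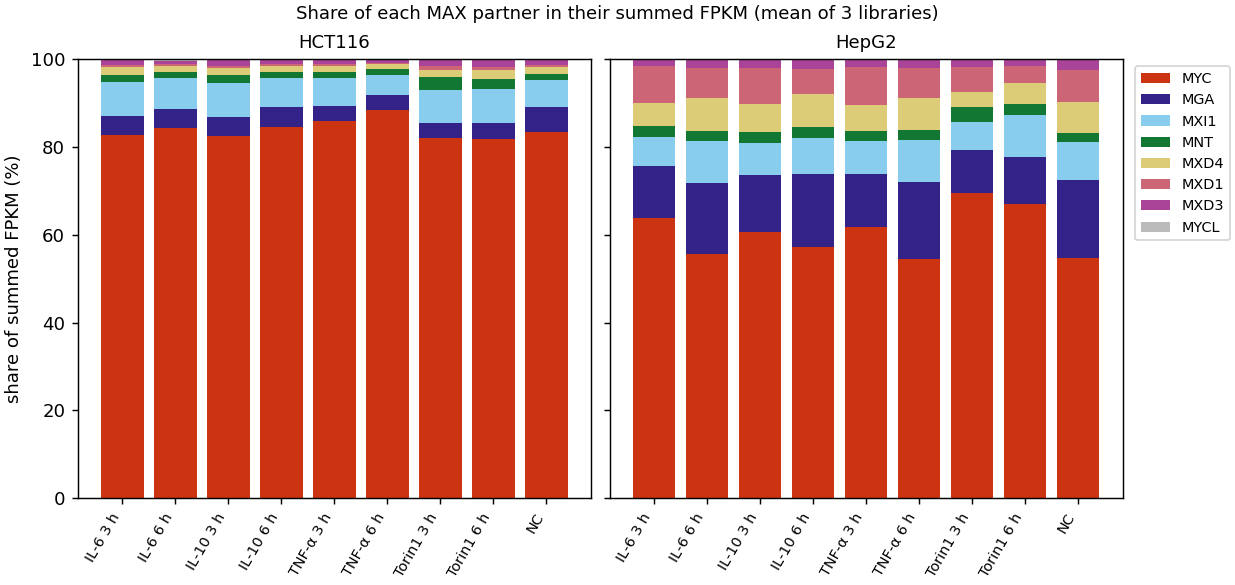
Share of each MAX partner in their summed FPKM (vertical axis, percent; mean of 3 libraries) by group in HCT116 and HepG2. MYC fills 81.9% to 88.4% of every HCT116 bar, and its part of the HepG2 bars is 54.4% to 69.6%, largest with Torin1. MGA takes 3.36% to 5.5% in HCT116 and 9.79% to 17.7% in HepG2.

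Other genes of the pathway were followed in lists that the members did not enter. MYCN rose with Torin1 in HepG2 to 9.24, 8.46 and 8.60 FPKM at 3 h and 8.73, 8.70 and 8.52 FPKM at 6 h, against 4.55, 4.43 and 4.47 FPKM in NC (log2 0.83 and 0.82, both called). With TNF-α it fell to 3.17, 3.19 and 3.11 FPKM at 3 h and 2.38, 2.26 and 2.87 FPKM at 6 h (log2 -0.40 and -0.65). Against NC, MYC and its paralog thus moved together with Torin1 and apart with TNF-α at 3 h. Against IL-10 of 3 h, MYCN was also lower with TNF-α (-0.56), while MYC did not pass (0.11). CCAT1, a long noncoding RNA from the MYC region, had 30.33, 29.98 and 28.69 FPKM at 3 h and 23.51, 24.18 and 23.97 FPKM at 6 h of Torin1 in HepG2, against 17.26, 18.45 and 17.82 FPKM in NC (log2 0.70 and 0.40). In HCT116 it had 8.11, 8.29 and 7.27 FPKM and 6.95, 6.75 and 5.19 FPKM, against 4.17, 4.66 and 4.59 FPKM in NC (log2 0.70 and 0.41). PVT1, the noncoding neighbour of MYC, did not pass with Torin1 against NC in either line, and CASC11 and POU5F1B were under the filter. Against IL-10 of the same hour in HCT116, neither CCAT1 nor PVT1 was called with Torin1 at 3 h, and both were higher at 6 h. In HepG2, 1 of the 2 was higher than with IL-10 at each hour of Torin1. TNF-α raised both in HCT116 at 3 h and 6 h, against NC and against IL-10. At 3 h against NC, 1 of the 2 also rose with IL-6 and with IL-10 in each line, and with TNF-α in HepG2.

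SIN3A, the scaffold of the corepressor that MXD proteins and MNT use, rose with Torin1 in both lines. It had 10.92, 10.83 and 10.46 FPKM at 3 h and 13.94, 14.02 and 14.54 FPKM at 6 h in HCT116, against 8.54, 7.96 and 8.27 FPKM in NC (log2 0.34 and 0.71). In HepG2 it had 10.51, 10.31 and 10.41 FPKM and 9.92, 10.07 and 10.72 FPKM, against 6.53, 6.94 and 6.44 FPKM in NC (log2 0.58 and 0.56). Over the 8 SIN3 corepressor genes, 4 rose and 2 fell at 3 h and 2 rose and 1 fell at 6 h in HCT116, and 1 rose and 3 fell at 3 h and 1 rose and 4 fell at 6 h in HepG2. Of all genes, 25.1% rose and 28.6% fell at 3 h and 25.8% rose and 31.5% fell at 6 h in HCT116, and 19.4% rose and 26.1% fell, then 26.1% rose and 33.8% fell, in HepG2. The Torin1 counts against NC of the lists below are read beside these shares. Those against IL-10 are read beside 17.6% higher and 26.7% lower, then 23.6% and 33.7%, of all genes in HCT116. In HepG2 the shares against IL-10 were 21.5% higher and 24% lower, then 28.7% and 30.3%. Against NC, the median of the SIN3 list was log2 0.08 and -0.01 in HCT116 and -0.08 and -0.09 in HepG2, against -0.01, -0.02, -0.04 and -0.03 over all genes, and HDAC1 fell in HepG2 (log2 -0.19 and -0.41).

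Of the Polycomb partners of MGA, 7 of 9 were tested and RING1 and RYBP were under the filter. With Torin1 in HCT116, 5 fell at 3 h and 6 at 6 h and none rose (median log2 -0.17 and -0.24, against -0.01 and -0.02 over all genes), with L3MBTL2 (-0.48 and -0.45) and TFDP1 (-0.31 and -0.42) among them. Against IL-10 all 7 tested fell at both hours. In HepG2, 2 fell at 3 h, and 3 fell and 1 rose at 6 h, with TFDP1 (-0.30 and -0.62) and L3MBTL2 (-0.32 and -0.62) falling. MLX, the partner MNT can use in place of MAX, fell with Torin1 in HCT116 (20.3 ± 0.66 and 18.4 ± 0.26 FPKM, against 28.4 ± 0.90 FPKM in NC, log2 -0.47 and -0.60). In HepG2 it did not pass (-0.07 and 0.01), and the difference between the lines was called (-0.40 and -0.61). MLXIPL, the glucose-sensing partner of MLX, rose with Torin1 against NC in both lines, by 0.24 and 0.18 in HCT116 and by 0.35 and 0.45 in HepG2. Against IL-10 in HepG2, neither MLX nor MLXIPL was called at 3 h of Torin1, and both were called higher at 6 h.

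Among the 9 MYC cofactors, Torin1 raised 1 and lowered 4 at each hour in HCT116, and lowered 3 and 5 and raised none in HepG2 (median log2 -0.07, -0.13, -0.07 and -0.11). IL-6 and IL-10 at 3 h also raised 1 and lowered 4 in HCT116. Against NC, the histone acetyltransferase KAT5 was the one that rose with Torin1 in HCT116 (log2 0.20 and 0.29). WDR5, which tethers MYC to chromatin, fell (-0.51 and -0.34 in HCT116, -0.16 and -0.11 in HepG2). Against IL-10 of the same hour, Torin1 raised 0 cofactors, so not KAT5, and lowered 1 at 3 h in HCT116. At 6 h it raised 1 and lowered 2 there. In HepG2 it raised 0 and lowered 3, then raised 2 and lowered 4, against IL-10. Of the 10 genes of MYC protein turnover 9 were tested, the ubiquitin ligase gene FBXW7 being under the filter. With Torin1, 1 rose and 5 fell at 3 h and 0 rose and 3 fell at 6 h in HCT116, and 4 rose and 2 fell, then 3 rose and 4 fell, in HepG2 (median log2 -0.14, -0.07, 0.06 and 0.03). With IL-10 at 3 h in HCT116, 1 rose and 5 fell as well. When Torin1 was set against IL-10, 3 rose and 2 fell, then 2 rose and 3 fell, in HCT116. In HepG2, 5 rose and 1 fell, then 4 rose and 4 fell, against IL-10. SKP2, another ligase of MYC, fell with Torin1 in HCT116 (-0.40 and -0.54) and at 6 h in HepG2 (-0.46). PPP2R5A, a phosphatase subunit that favours MYC loss, rose in HepG2 (0.31 and 0.68) and did not pass in HCT116 (-0.02 and -0.08).

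The known targets of MYC formed the longest list, with 51 of 54 genes tested in each line. With Torin1, 4 rose and 29 fell at 3 h and 6 rose and 31 fell at 6 h in HCT116 (median log2 -0.11 and -0.18, against -0.01 and -0.02 over all genes), where 28.6% and 31.5% of all genes fell. In HepG2, 5 rose and 15 fell at 3 h and 6 rose and 28 fell at 6 h (median -0.07 and -0.11, against -0.04 and -0.03), where 26.1% and 33.8% of all genes fell. MYC itself rose in these same comparisons, as given above. GRWD1, a ribosome assembly gene, fell in both lines (-0.49 and -0.57 in HCT116, -0.43 and -0.47 in HepG2), and the pseudouridine synthase gene PUS1 fell by 0.59 at 3 h in HCT116. The counts against IL-10 were 10 higher and 20 lower, then 6 and 30, in HCT116, and 5 and 17, then 7 and 22, in HepG2. Of all genes, 17.6% were higher and 26.7% lower, then 23.6% and 33.7%, in HCT116. In HepG2 these shares were 21.5% and 24%, then 28.7% and 30.3%.

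HK2, the hexokinase that starts glycolysis, went opposite ways in the 2 lines. It had 7.70, 8.10 and 7.82 FPKM at 3 h and 7.66, 7.54 and 7.10 FPKM at 6 h of Torin1 in HCT116, against 11.36, 12.10 and 12.58 FPKM in NC (log2 -0.55 and -0.63). In HepG2 it had 37.86, 37.93 and 37.00 FPKM and 44.69, 46.29 and 46.88 FPKM, against 28.09, 28.80 and 28.16 FPKM in NC (log2 0.40 and 0.68). The difference of the effects was -0.95 and -1.30 (limma adjusted p = 4.7e-14 and 2.7e-18). LDHA, a glycolysis gene on the list, was listed under 1 FPKM in NC of both lines (0.477 and 0.666 FPKM) and FBL, which codes for a nucleolar methylase, was listed at 5.55 and 3.78 FPKM there, with no call in any comparison of the list. Whether these rows hold all reads of LDHA and FBL was not tested. A gene under the filter could not be called.

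With the cytokines at 3 h in HCT116, 2 genes of the target list rose and 23 fell with IL-6, 3 rose and 24 fell with IL-10, and 0 rose and 19 fell with TNF-α (median log2 -0.08, -0.08 and -0.07), where 15.6%, 16.9% and 22.4% of all genes fell. Against IL-10 at 3 h, 0 rose and 0 fell with IL-6, and 12 rose and 9 fell with TNF-α (0.167%, 0.0702%, 14.3% and 22.2% of all genes). At 6 h against NC, 9 rose and 4 fell, 8 rose and 6 fell, and 7 rose and 5 fell with IL-6, IL-10 and TNF-α. Of all genes, 11.1%, 14% and 16.7% rose and 5.45%, 6.49% and 17.1% fell. In HepG2 at 3 h, where MYC was above NC with all 3, 9 targets rose and 6 fell with IL-6, 3 rose and 5 fell with IL-10, and 3 rose and 8 fell with TNF-α. Of all genes there, 14.5%, 7.17% and 12.8% rose and 19.5%, 11.9% and 16.9% fell, so these counts are near or below the background. The medians there were 0.002, -0.02 and -0.03, against -0.02 over all genes in each.

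**Figure D5:**
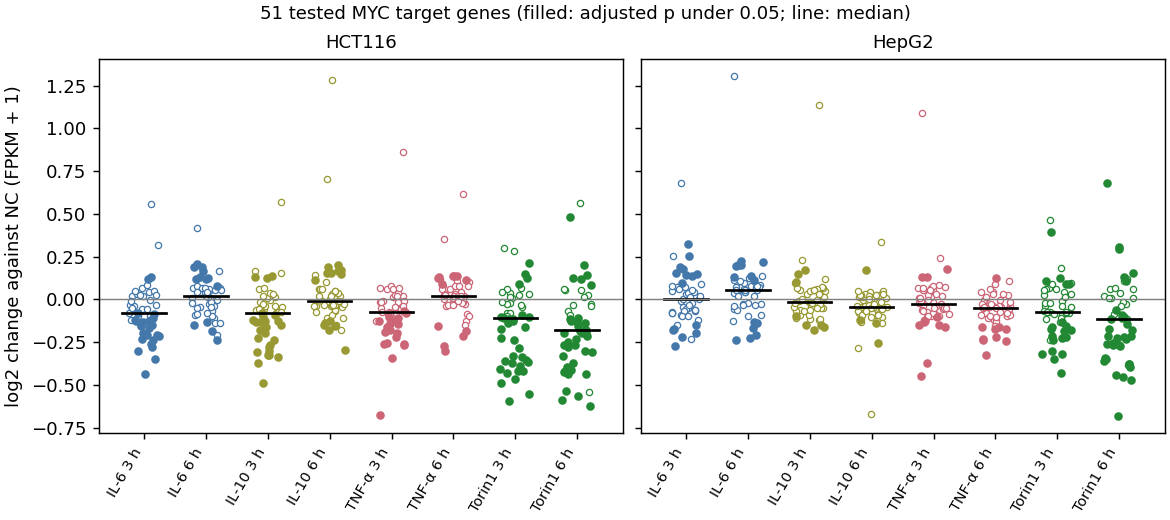
Changes of 51 MYC target genes against NC (vertical axis, log2 of FPKM + 1) for each agent and hour in HCT116 and HepG2, with 1 point per gene, filled where called, and a line at the median. The Torin1 columns sit lowest in both lines (median -0.11 and -0.18 in HCT116, -0.07 and -0.11 in HepG2).

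Lastly, the genes whose 9 group means tracked a member most closely were found among 3130 genes in HCT116 and 3042 in HepG2 that spanned at least 0.5 log2. All correlations share the same libraries, so they are given with no p. A Torin1 group had the highest mean for the members below, save for 2 rows. These were MYC in HCT116, highest with TNF-α at 6 h, and MXD1 in HepG2, highest with IL-6 at 3 h. MYC in HCT116 was followed most closely by TAF4B (r = 0.99), VEZF1 (0.97), KCNK1 (0.95), CDA (0.93) and APOBEC3B (0.93). In HepG2 it was followed by KLHL21 (r = 0.99), ERRFI1, SLC38A2 and FZD5 (0.98 each) and ZNF844 (0.98), and KLHL21 and ZNF844 were also the 2 nearest to MNT there (0.98 each). MNT in HCT116 was nearest to JMJD1C and EXPH5 (0.99 each). MXI1 was nearest to TFDP2 and SLC49A4 in HCT116 (0.99 each) and to PERP (0.99) and MAPK6 (0.98) in HepG2. The nearest to MXD1 in HepG2 were SRF and FBXO33 (0.95 and 0.94), to MXD3 in HCT116 PIGV and POLD4 (0.99 each), to MXD4 in HCT116 ATXN1 and TESK2 (0.97 each) and to MAX in HepG2 ATP13A3 (0.96) and ATG13 (0.95).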

How the data were processed

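Poly(A) RNA of 54 libraries (2 cell lines, 9 groups each, 3 libraries a group) was read, per the labels' protocols, with an MGISEQ-2000RS sequencer. The submitters' processing notes name FastQC, HISAT2, StringTie, DESeq2 and GRCh38, and the authors deposited FPKM values per gene. Whole reads could be recovered for 99.99% of genes tried (within 0.01 read) and gave the depth and a limma-voom alternative chosen after seeing the data. The deposited columns of 16 unnamed comparisons were not used.

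From FPKM, log2(FPKM + 1) was fitted per line with limma 3.58.1 (eBayes with trend, R 4.3.3) over the 27 libraries, for genes at 1 FPKM or more in at least 3 of them (11395 in HCT116, 11280 in HepG2). Calls used an adjusted p under 0.05 (Benjamini-Hochberg). Line differences were fitted over all 54 libraries. The procedure was tested on simulated data. Replicate numbers did not pair the libraries. Other genes were named as the leading changes of each list and the nearest patterns. The members and gene lists were chosen with earlier results of these data known. Alternatives were another pseudocount, filter, scaling, control, set of libraries, replicate block and each library left out. A series group allowed to recover from Torin1 was not analysed here.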

Additional observations from a re-analysis of the deposited data

Results flagged for a closer look

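The effects below differed between the lines by the interaction test, under NC and under IL-10 of the same hour as control, with the same sign. Both tests share the treated libraries. Values are the log2 effect in HCT116 minus that in HepG2, against NC and then against IL-10. For Torin1 at 3 h they were -0.908 and -0.535 for MYC, -0.316 and -0.211 for MGA, and 0.309 and 0.301 for MXD4. For MXD1 they were 0.21 and 0.575, given as a description with no test read from them, since its row in HCT116 passed the filter through Torin1 libraries. The first lost its call without HCT116 NC replicate 3 (0.15). For Torin1 at 6 h they were -0.676 and -0.742 for MYC, -0.258 and -0.312 for MAX, -0.291 and -0.244 for MGA, 0.608 and 0.555 for MXD3, 0.423 and 0.527 for MXD4, and -0.157 and -0.343 for MXI1.

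For IL-6 at 3 h the differences were -0.649 and -0.276 for MYC, the second with a limma adjusted p of 0.066 when only the libraries compared were fitted. Those of MXD1, -0.57 and -0.205, are also a description, since its row in HCT116 passed the filter through Torin1 libraries. For TNF-α at 6 h the differences were 0.478 and 0.411 for MYC, -0.248 and -0.201 for MGA, 0.218 and 0.274 for MNT, and -0.216 and -0.402 for MXI1. The MXD1 difference with IL-6 against IL-10 lost its call without HCT116 IL-10 replicate 1 (-0.19) or 3 (-0.20), HCT116 IL-6 replicate 1 (-0.18) or 3 (-0.21), HepG2 IL-10 replicate 3 (-0.17) or HepG2 IL-6 replicate 3 (-0.18). It also lost the call with a pseudocount of 0.1, limma-voom, equal total reads, no filter or only the libraries compared. The causes of these differences were not tested.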

How the results depend on the processing

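Of 191 called results of members, 8 of them MXD1 with Torin1 in HCT116, 42 lost the call when 1 library was left out and 0 changed sign. Losses were 29 when only the libraries compared were fitted, 26 with no filter, 10 with equal total reads, 8 with median-of-ratios factors, 8 with limma-voom and 3 with a pseudocount of 0.1. With IL-10 as control, 13 of 49 lost the call with the sign kept. Another 8 changed sign, and of them only MXD1 with Torin1 at 6 h in HepG2 was called. In HCT116 those that changed sign were MGA (0.006), MNT (-0.069) and MXI1 (-0.005) with IL-6 at 3 h and MNT (-0.12) and MXI1 (-0.071) with TNF-α at 3 h. In HepG2 they were MGA with IL-6 at 3 h (0.057), MNT with TNF-α at 3 h (-0.069) and MXD1 with Torin1 at 6 h (0.21), and MYC with TNF-α at 3 h fell below the threshold (0.106, adjusted p = 0.157).

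Counts of members called against NC moved with IL-10 as control to 0 for IL-6 at 3 h and at 6 h and 2 for TNF-α at 3 h in HCT116, and in HepG2 to 2 and 3 for IL-6 and 1 and 4 for TNF-α at 3 h and 6 h. With equal total reads they were 1 for IL-6 and 2 for IL-10 at 6 h in HCT116 and 1 each for IL-10 and TNF-α at 6 h in HepG2. Median-of-ratios factors and limma-voom also gave 1 for both HepG2 groups. No filter gave 0 for IL-6 and 1 for IL-10 there, and only the libraries compared gave 2 for IL-6 and 1 for TNF-α. Leaving out 1 library gave 0 to 1 for IL-6, 1 to 2 for IL-10 and 0 to 1 for TNF-α at 6 h in HepG2. Libraries of the same replicate number did not deviate together (r -0.117 to 0.117, 0 of 36 comparisons with every pair over 0.1). A replicate block ended 1 call, MXI1 with IL-6 in HepG2 at 6 h against 3 h (0.153, adjusted p = 0.05). The planned edgeR test on whole counts was not run, since the deposited unit is FPKM. MYCL lay under the filter in both lines and MXD1 near it in HCT116.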
